A study of Hydra vulgaris with 36 samples.

Results

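In the tentacles of mock-treated Hydra, 64 of the 22608 genes in the deposited count table were measured at clearly higher levels in the proximal part, next to the head, than in the distal part. They were chosen on plain CPM (a gene's count divided by the library's total count, scaled by the same factor in all libraries) by 3 criteria: a mean of at least 10 CPM in the 4 mock proximal libraries, a mean at least 4 times that of the 4 mock distal libraries, and a lowest proximal library above the highest distal library. Of the genes in the table, 6030 met the first criterion, 72 of these also the second, and 65 all 3. One of the 65 was on a list of 5 identifiers that the rule leaves out. The upper limit of 150 genes in the rule was not reached.

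Hydra vulgaris is a freshwater polyp whose tentacles are built from ectodermal battery cells, which carry the stinging cells (nematocytes), and an inner gastrodermal layer. Epithelial cells are displaced from the body column into the tentacle base, become tentacle cells there and move on to the tip, where they are shed, so proximal and distal tissue differ in the time that cells have spent in the tentacle. Zic4 is a zinc-finger transcription factor of the tentacle, and Sp5 is a transcription factor that represses Wnt signalling of the head organizer. Gland cells, which secrete digestive enzymes and protease inhibitors into the gut, belong to the gastrodermis of the body.

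All animals were of strain Hm_105 with wild type genotype and differed by RNA interference (RNAi), the lowering of a transcript with small interfering RNA delivered by electroporation. The labels describe 20 to 30 animals per treatment, 3 electroporations at 1.35 µM, tentacles taken 7 days after the last one, and pooled tissue. One set of 25 libraries comprised mock distal (n = 4), mock proximal (n = 4), Zic4 RNAi distal (n = 4), Zic4 RNAi proximal (n = 4), Sp5 RNAi distal (n = 3), Sp5 RNAi proximal (n = 3) and Sp5 RNAi ectopic (n = 3). Original tentacles are those at the normal position, and ectopic tentacles grew elsewhere. The other set of 11 libraries comprised undivided original tentacles of mock animals (n = 3) and of Zic4/Sp5 RNAi animals, which received both treatments (n = 4), together with the ectopic tentacles that the doubly treated animals grew (n = 4). The labels do not say that the libraries of a group came from separate cultures, so p-values measure the spread between these libraries, which may be technical. The transcripts of Zic4 and Sp5 themselves are not analysed here.

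Library totals ran from 2.04 M to 13.28 M (mega) counts. The 4 mock proximal libraries lay at the edge of the series. The 10 most abundant genes took 17.2 to 23.1% of their counts and 9.24 to 17.7% of those of other libraries. Their TMM factors (edgeR's scaling for library composition) were 0.541 to 0.777, and 0.753 to 1.26 elsewhere. Levels below are TMM-scaled CPM within a set. They raise mock proximal levels relative to plain CPM and are not comparable between the sets. Tentacle battery cell genes (hywnt5a, hywnt8, Alx and annexin XII) summed to between 1518 and 17566 CPM, and none of the 4 was at 0 throughout any group.

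Of the 64 genes, 34 matched a gene of the RefSeq table for assembly HydraT2T_AEP: 31 protein-coding genes, 2 long non-coding RNAs and 1 other RNA. The match is used for names, RNA class, gene order along that assembly and the choice of genes to name, and for no level or test. Whether the order holds in strain Hm_105 was not tested. A single one has a name, kazal1, which encodes a Kazal-type serine protease inhibitor that Hydra gland cells make. The others are known here by LOC symbols or by the table's numeric identifiers. Of the functional classes searched by name, the class of proteases and protease inhibitors held kazal1 and the other classes held no member. Among the 34 placed genes, 2 pairs lay within 5 genes of each other, LOC100201633 with LOC100210371 at 2 genes apart and kazal1 with LOC100211420 at 5 genes apart. The counts of LOC100201633 were 3.60 to 13.3 times those of LOC100210371, with a median of 8.05, over the 27 libraries with at least 10 counts of the latter. How reads shared by similar genes were counted is not given in the sources used here, so values of that pair are uncertain.

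The values that chose the genes are given as a description. The ratio of mock proximal to mock distal means, with 0.5 CPM added to both, had a median of 7.38. It was over 20 for 12 genes and under 10 for 37. LOC100201633 led with a plain mean of 1055 CPM in proximal and 2.04 CPM in distal libraries. Gene 100201060 had 0 counts in all 4 mock distal libraries, where 3 counts would be 0.358 to 1.58 TMM-scaled CPM. Proximal means lay between 10 and 20 CPM for 14 genes. Just inside the limit of 4 times were LOC100213913 at 4.07 and gene 105843060 at 4.08, and just outside it were gene 101237310 at 3.99 and gene 100197160 at 3.96. Around the limit of 10 CPM, LOC100211420 at 10.2 CPM was inside and LOC100192287 at 9.68 CPM outside. On the same plain CPM, the opposite criteria, distal over proximal, were met by 635 genes. Such counts depend on the scaling. On TMM-scaled CPM 213 genes met the proximal criteria, and the opposite count was not made.

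The 64 genes together took 1.72 ± 0.226% (SD, n = 4) of the counts in mock proximal and 0.213 ± 0.0446% (n = 4) in mock distal libraries. After both other treatments of the divided set, proximal libraries also ranked above distal ones. The median level of the 64 genes per library was 6.10, 10.7, 27.7 and 29.8 in Zic4 RNAi distal libraries and 40.6 to 62.9 in Zic4 RNAi proximal libraries. It was 4.20, 6.52 and 15.3 in Sp5 RNAi distal libraries and 47.5, 58.3 and 96.4 in Sp5 RNAi proximal libraries. Zic4 RNAi distal replicates 2 and 4 and Sp5 RNAi distal replicate 3 thus stood above the other distal libraries, and no distal library reached a proximal one of its own treatment. Sp5 RNAi ectopic libraries, at 47.4 to 76.8, lay in the proximal range. In the undivided set the median level was 22.8 to 24.3 in mock original libraries and 96.2 to 155.6 in Zic4/Sp5 RNAi ectopic libraries. The Zic4/Sp5 RNAi original libraries spread from 27.8 to 147.8. In these bulk samples, fewer cells of a type and less RNA per cell cannot be told apart.

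**Figure D1:**
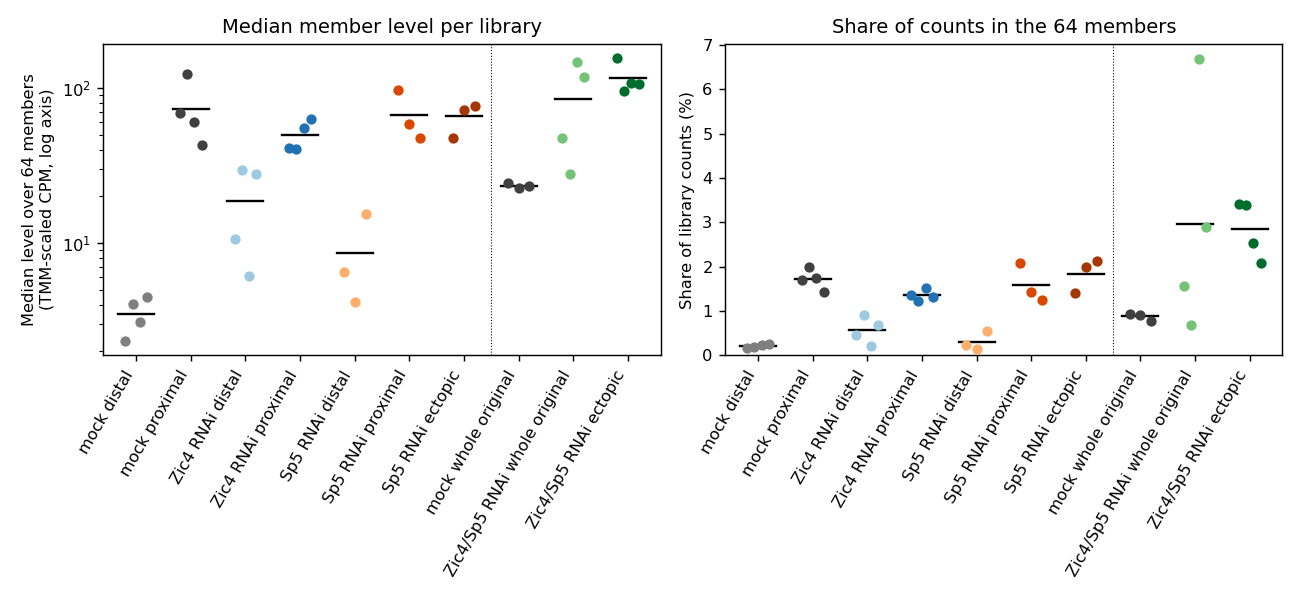
Left, the median TMM-scaled CPM of the 64 genes in each of the 36 libraries on a log axis, and right, the percentage of each library's counts in these genes. Points are libraries, bars are group means and the dotted line parts the separately scaled sets. Mock distal libraries lie at 2.33 to 4.49 and mock proximal ones at 42.8 to 122.6, which is how the genes were chosen, and 1 Zic4/Sp5 RNAi original library reaches 6.70% of counts.

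Every contrast with mock distal or mock proximal libraries reuses those that chose the genes, so it carries no test here. The fitted log2 fold change of Zic4 RNAi proximal over mock proximal had a median of -0.76 over the 64 genes, negative for 46 and positive for 18. For Sp5 RNAi proximal over mock proximal the median was -0.50, negative for 42. Against mock distal, the median was 1.80 for Zic4 RNAi distal and 0.27 for Sp5 RNAi distal, and it was 1.96 for Sp5 RNAi ectopic against the mean of the mock groups. The medians over all 14332 genes tested in the same contrasts lay between -0.03 and 0.05. Of the 7 groups in the divided set, mock proximal held the highest mean for 25 genes, Sp5 RNAi ectopic for 24, Sp5 RNAi proximal for 8 and Zic4 RNAi proximal for 7. All these values rest on TMM scaling, which raised mock proximal levels most. Its factors were 0.541 to 0.777 in mock proximal, 1.12 to 1.20 in Zic4 RNAi proximal and 0.753 to 1.05 in Sp5 RNAi proximal libraries. The falls below mock proximal therefore depend on the scaling, and their size on library totals is not given here.

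**Figure D2:**
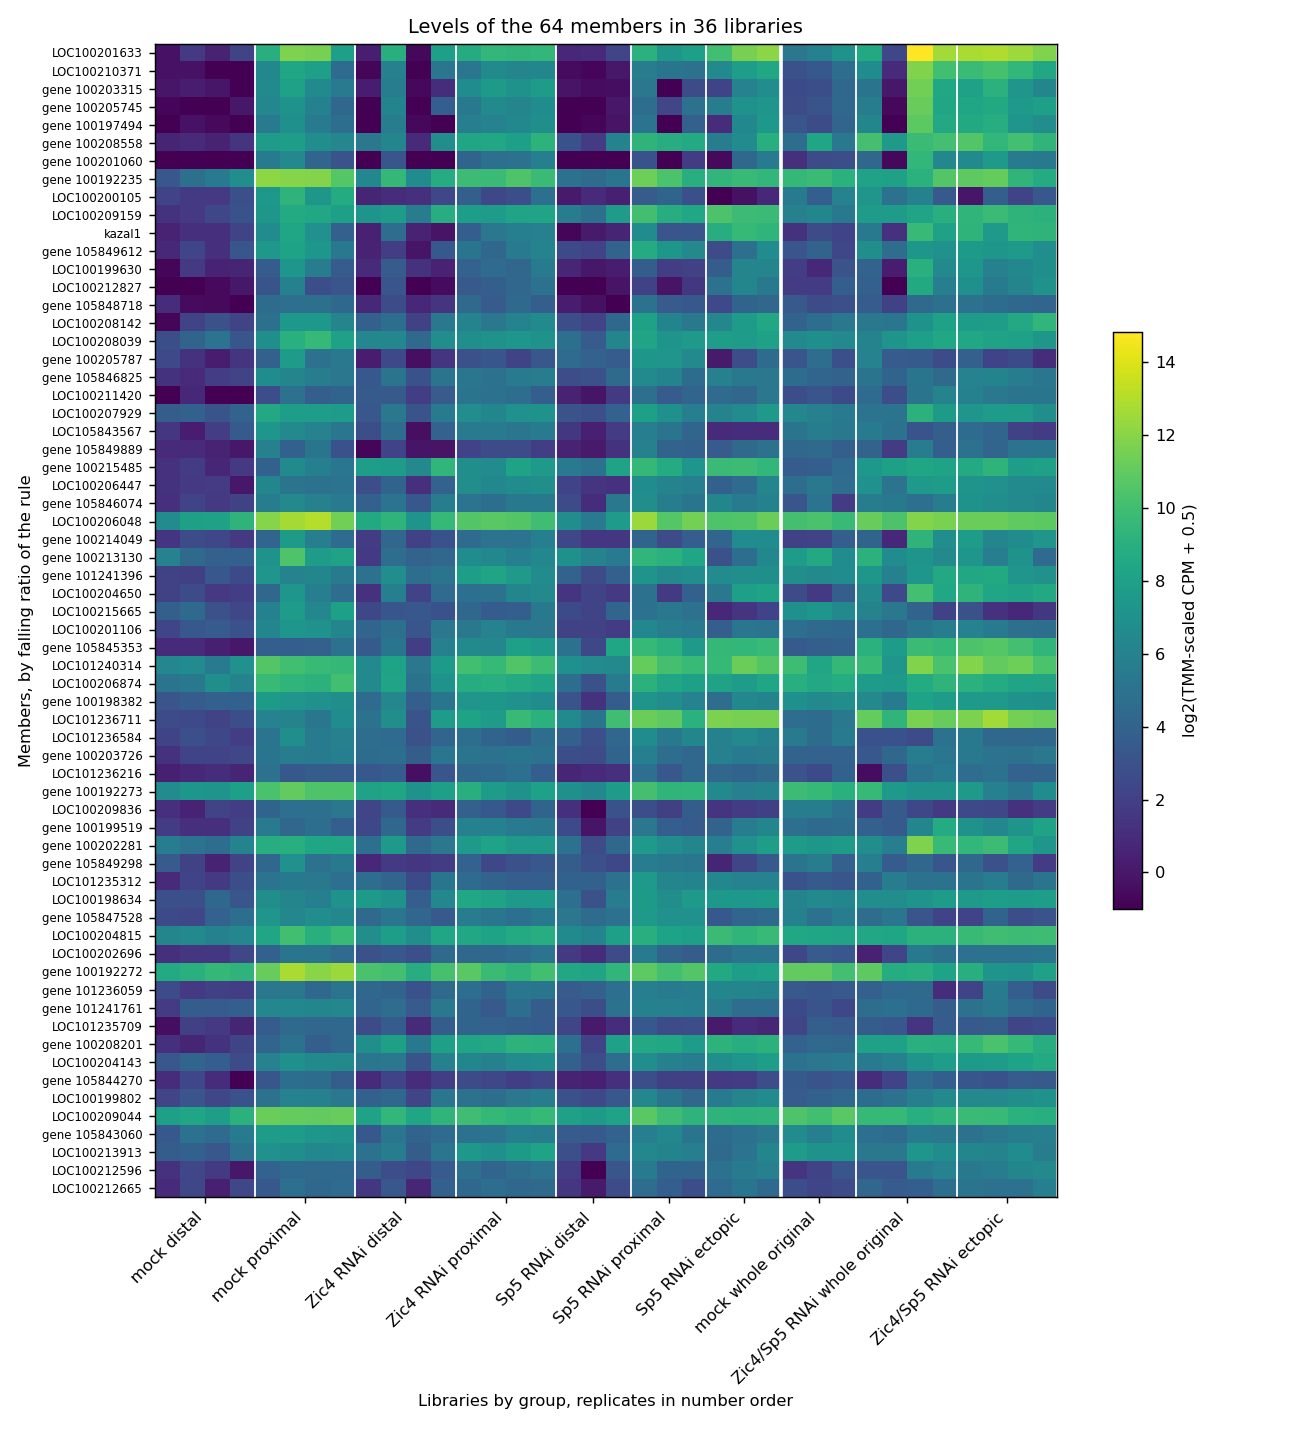
Levels, as log2(TMM-scaled CPM + 0.5), of the 64 genes (rows, by falling ratio of the rule) in 36 libraries (columns, by group). The mock distal columns are dark and the mock proximal ones lighter by choice of the genes. Rows such as LOC100201633 and gene 100203315 are light in Zic4 RNAi distal replicate 2 and dark in replicate 3, and LOC101236711 is light in every Zic4/Sp5 RNAi library.

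The first independent question was whether the genes kept their proximal bias in animals treated with Zic4 or Sp5 siRNA, whose libraries had no part in the choice. All 64 genes passed the filter on low counts. After Sp5 RNAi, 53 of 64 were higher in proximal than in distal libraries and none lower, where 12.1% of all 14332 genes tested were called higher, 10.6% lower and 22.7% either way (edgeR quasi-likelihood test, Benjamini-Hochberg adjusted p under 0.05). After Zic4 RNAi, 10 of 64 were higher and none lower, against 2.04% and 3.71% of all genes, or 5.76% either way. The median log2 fold change of the 64 genes was 2.71 after Sp5 RNAi and 1.57 after Zic4 RNAi, with medians over all genes of 0.03 and 0.01. The sign was positive for 64 genes after Sp5 RNAi and for 61 after Zic4 RNAi. Of the 64, 62 and 45 had an unadjusted p under 0.05, as had 5327 and 3162 of all 14332 genes. Proximal and distal libraries did not overlap, with proximal higher, for 53 genes after Sp5 RNAi (21.2% of all genes) and for 31 after Zic4 RNAi (8.53%). These are not the same genes as those called. Among them were 50 of the 53 called after Sp5 RNAi and 9 of the 10 called after Zic4 RNAi. The 10 genes called after Zic4 RNAi were all among the 53 called after Sp5 RNAi, which is 100% of the shorter list and 18.9% of the longer. A further 11 genes were called after neither treatment. The same overlap over all genes was not determined. The Zic4 RNAi count rested on single libraries: it was 24 without distal replicate 2 and 4 without distal replicate 3. The Sp5 RNAi count was 35 without proximal replicate 1. The Zic4 RNAi count was 21 in DESeq2, 36 in limma voom and 16 with only the groups compared. Some markers of other cells moved with these comparisons. After Sp5 RNAi, the 4 battery cell genes summed to 4912 to 12631 CPM in proximal and 1764 to 1858 CPM in distal libraries. Annexin XII carried this gap, at group means of 8032 and 1445 CPM. Alx was also higher proximally, whereas hywnt5a (101.0 and 297.6 CPM) and hywnt8 (21.9 and 38.7 CPM) were lower there. The dividing and interstitial cell marker piwil1 read 315.8 to 348.8 CPM proximally and 174.4 to 185.9 CPM distally, and the 11 head organizer genes, mostly Wnt ligands, summed to 25.6 to 46.9 and 20.5 to 23.3 CPM, with 5 of the 11 at 0 in both parts. Proximal and distal ranges did not overlap for either sum or for piwil1 after Sp5 RNAi. After Zic4 RNAi, the head organizer genes summed to 51.3 to 74.2 CPM proximally and 23.4 to 50.9 CPM distally, without overlap. Battery cell genes (3073 to 3928 and 1971 to 4506 CPM) and piwil1 (300.5 to 332.1 and 142.2 to 315.2 CPM) overlapped. The largest part of both head organizer differences was hywnt7, at group means of 42.3 and 17.0 CPM after Zic4 RNAi and 15.6 and 4.12 CPM after Sp5 RNAi. Lower proximally were hywnt11 (2.64 and 4.99 CPM) and hywnt2 (0.108 and 0.460 CPM) after Zic4 RNAi. After Sp5 RNAi, LOC100204831 was (4.24 and 7.89 CPM). The 8 nematoblast genes (precursors of the stinging cells) summed to 36.3 to 56.9 and 32.4 to 36.4 CPM after Sp5 RNAi and to 20.0 to 327.2 and 22.3 to 62.9 CPM after Zic4 RNAi. These ranges overlapped after both treatments. Lower proximally after Sp5 RNAi were nowa (12.7 and 15.8 CPM) and LOC100212904 (0.730 and 1.10 CPM). So were LOC100209638 (0.915 and 1.24 CPM) and nb035 (0.242 and 0.326 CPM). After Zic4 RNAi nb001 carried the gap (137.0 and 6.28 CPM), while nowa was lower proximally (10.1 and 18.2 CPM). The part of these cells in the proximal bias was not tested.

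The genes named by rule after Zic4 RNAi were LOC100206447 and LOC101240314, with the 2 largest rises among called genes without overlap that matched RefSeq, and LOC100200105, one of the 10 genes with the largest mock ratio. LOC100206447 read 110.8, 83.3, 103.9 and 117.8 CPM in the Zic4 RNAi proximal libraries and 6.44, 16.8, 1.68 and 15.4 CPM in the distal ones. The groups were far apart and the gene rose in proximal tissue (log2 fold change 3.37, SE 0.54, edgeR adjusted p = 0.00137). After Sp5 RNAi it read 102.8, 66.5 and 56.9 CPM in proximal and 4.01, 2.07 and 1.86 CPM in distal libraries, again without overlap (log2 fold change 4.81, SE 0.68, edgeR adjusted p = 0.000173). LOC101240314, an abundant transcript, read 1054, 780.3, 1492 and 903.1 CPM in Zic4 RNAi proximal libraries. Its distal values were 94.1, 292.0, 37.6 and 199.7 CPM, lower in every library (log2 fold change 2.76, edgeR adjusted p = 0.00248). LOC100200105 read 13.4, 4.98, 6.58 and 26.5 CPM in Zic4 RNAi proximal libraries, where mock proximal libraries held 164.1 to 636.6 CPM, a difference given without a test. It was higher there than in Zic4 RNAi distal libraries, at 1.07 to 4.65 CPM (log2 fold change 2.61, edgeR adjusted p = 0.0134), and this call was lost without proximal replicate 4 or distal replicate 3. The other 7 genes called after Zic4 RNAi were gene 105849612, gene 105848718, LOC100207929, gene 101241396, gene 100198382, gene 100199519 and LOC100213913, with log2 fold changes of 1.88 to 3.62.

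The largest proximal excess after Sp5 RNAi among the genes with a RefSeq match belonged to LOC100201633, LOC100210371 and kazal1. LOC100201633 read 553.9, 163.0 and 238.1 CPM in Sp5 RNAi proximal libraries and 1.20, 1.35 and 4.39 CPM in distal ones. The log2 fold change was 7.13 (SE 1.83, edgeR adjusted p = 0.00992). After Zic4 RNAi the same gene read 416.5 to 712.9 CPM in proximal libraries and 0.751, 496.2, 0.140 and 247.8 CPM in distal ones, so that distal replicate 2 reached the proximal range and the difference did not pass the test (log2 fold change 1.74, SE 1.22, edgeR adjusted p = 0.431). LOC100210371, which lies 2 genes from it, followed the same order, at 30.3 to 51.6 CPM in Sp5 RNAi proximal and 0.104 to 0.532 CPM in distal libraries (log2 fold change 7.10, edgeR adjusted p = 0.00687). For kazal1, the protease inhibitor gene, the Sp5 RNAi proximal values were 99.9, 8.66 and 8.76 CPM and the distal values 0.100, 0.622 and 1.06 CPM. The libraries did not overlap (log2 fold change 6.05, SE 1.52, edgeR adjusted p = 0.00879), but the first proximal library was over the other two and the call was lost without it. In Zic4 RNAi libraries kazal1 read 12.8, 38.7, 55.1 and 58.2 CPM proximally and 0.858, 24.2, 0.981 and 0.404 CPM distally (log2 fold change 2.59, SE 1.04, edgeR adjusted p = 0.141).

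Of the 10 genes with the largest ratio in mock tissue, 9 were also called after Sp5 RNAi. Gene 100192235 read 2558, 1303 and 514.0 CPM in Sp5 RNAi proximal libraries and 29.9, 23.7 and 34.2 CPM in distal ones (log2 fold change 5.64, SE 0.85, edgeR adjusted p = 0.00026). Gene 100208558 (4.27), gene 100205745 (6.86), LOC100209159 (2.70) and LOC100200105 (3.63) were likewise higher, with the log2 fold change in parentheses. Leaving out distal replicate 1 ended the calls of gene 100208558 and gene 100205745, leaving out distal replicate 2 that of gene 100205745, and leaving out proximal replicate 1 that of LOC100209159. Genes 100203315 and 100197494 passed the test, but both had 0 counts in proximal replicate 2 and lost the call without any of the distal replicates or proximal replicate 1; for gene 100197494 this also held for proximal replicate 3. Sp5 RNAi proximal libraries were shallow, and 3 counts there would be 0.938 to 1.24 CPM. Gene 100201060 had 0 counts in all 3 Sp5 RNAi distal libraries (3 counts would be 0.301 to 0.399 CPM) and read 7.43, 0 and 2.82 CPM proximally, a difference that did not pass the test (edgeR adjusted p = 0.115).

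**Figure D3:**
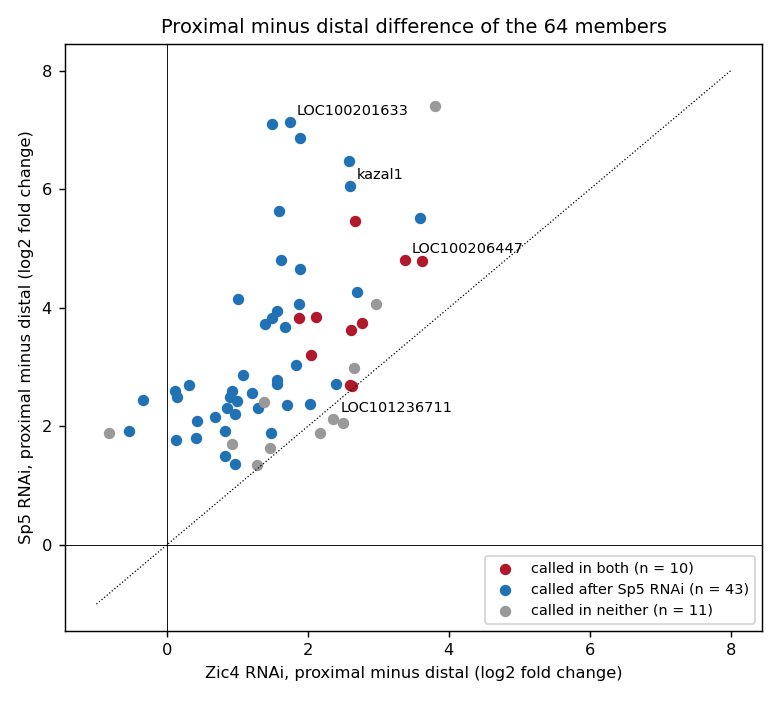
Fitted log2 fold change of proximal over distal libraries after Zic4 RNAi (x axis) and after Sp5 RNAi (y axis), 1 point per gene, coloured by the calls, with equality as the dotted line. All 64 points lie above 0 on the y axis and 61 lie above the line of equality, among them LOC100201633 at 1.74 and 7.13.

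The proximal excess was larger after Sp5 RNAi than after Zic4 RNAi for 61 of 64 genes, by a median of 1.47 on the log2 scale. Over all genes this median was 0.04. Its size depends on the TMM scaling. The factors were 0.753 to 1.05 in Sp5 RNAi proximal and 1.21 to 1.23 in Sp5 RNAi distal libraries. After Zic4 RNAi they were 1.12 to 1.20 and 0.986 to 1.26. In the test of this difference itself, an interaction term added after the data were seen, no gene of the 64 passed the adjusted threshold in edgeR, and 0.014% of all genes did. The unadjusted p was under 0.05 for 27 of the 64 and for 2107 of all 14332 genes. DESeq2 called 7 of the 64 and limma voom 0. The smallest edgeR adjusted p among the 64 was 0.0594, for LOC100201106. The count was 2 without Zic4 RNAi distal replicate 3 and 1 without Sp5 RNAi proximal replicate 3.

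Direct comparison of the 2 treatments asked in which part of the tentacle they differed. In distal tissue 2 of the 64 genes were lower after Sp5 RNAi than after Zic4 RNAi and none higher, with 0.147% of all genes lower, 0.167% higher and 0.314% either way (edgeR). The log2 fold change had a median of -1.30 over the 64 genes and was negative for 55, while the median over all genes was 0.00. The unadjusted p was under 0.05 for 38 of the 64 and for 1580 of all 14332 genes. LOC100201106 read 3.61, 3.73 and 2.93 CPM in Sp5 RNAi distal libraries and 17.4, 27.9, 8.83 and 38.2 CPM in Zic4 RNAi distal libraries. The groups did not overlap (log2 fold change -2.74, SE 0.46, edgeR adjusted p = 0.00651). Gene 100192235, at 23.7 to 34.2 CPM after Sp5 RNAi, was also below its Zic4 RNAi values of 81.4, 739.5, 101.1 and 443.9 CPM (log2 fold change -3.54, SE 0.76, edgeR adjusted p = 0.0396). Without Sp5 RNAi distal replicate 1 or 2 neither gene was called, without Sp5 RNAi distal replicate 3 or Zic4 RNAi distal replicate 2 or 4 gene 100192235 was not, and without Zic4 RNAi distal replicate 3 the count was 14. DESeq2 called 15.

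In proximal tissue 7 of the 64 genes were higher after Sp5 RNAi than after Zic4 RNAi and none lower, with 2.53% of all genes higher, 1.14% lower and 3.67% either way (edgeR). The median log2 fold change over the 64 genes was 0.04, with 33 positive and 31 negative. LOC101235312 read 177.1, 74.0 and 70.4 CPM after Sp5 RNAi and 23.0, 15.8, 12.9 and 13.6 CPM after Zic4 RNAi. Every Sp5 RNAi library was above every Zic4 RNAi library (log2 fold change 2.71, SE 0.45, edgeR adjusted p = 0.00119). In the Zic4 RNAi animals its distal libraries, at 25.3, 17.1, 5.47 and 35.0 CPM, overlapped the proximal ones, and the proximal minus distal difference was -0.34 on the log2 scale (edgeR adjusted p = 0.694). After Sp5 RNAi that difference was 2.45 (edgeR adjusted p = 0.00168). LOC101236584 followed the same order, with 101.5, 42.1 and 75.4 CPM after Sp5 RNAi and 25.8, 16.6, 12.3 and 25.3 CPM after Zic4 RNAi (log2 fold change 1.87, SE 0.43, edgeR adjusted p = 0.0163). Gene 100205787 gave the largest difference, 4.19 on the log2 scale, from 88.2 to 165.5 CPM against 4.24 to 9.31 CPM (edgeR adjusted p = 0.0157). The remaining 4 were gene 105849889, gene 100192273, gene 105847528 and gene 101241761. With the share of counts in the 10 most abundant genes as a covariate the count was 1, and with only the groups compared 19. The count was 1 without Sp5 RNAi proximal replicate 1 and 2 without Zic4 RNAi proximal replicate 2, and LOC101236584 lost its call without either. Tentacle battery cell genes summed to 4912 to 12631 CPM in Sp5 RNAi proximal and 3073 to 3928 CPM in Zic4 RNAi proximal libraries. Annexin XII made up most of this gap, at group means of 8032 and 3123 CPM. Of the other battery cell genes, hywnt5a was slightly higher after Sp5 RNAi (101.0 and 88.1 CPM). Lower after Sp5 RNAi were hywnt8 (21.9 and 42.5 CPM) and Alx. The part of battery cells in the differences of the 64 genes was not tested.

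**Figure D4:**
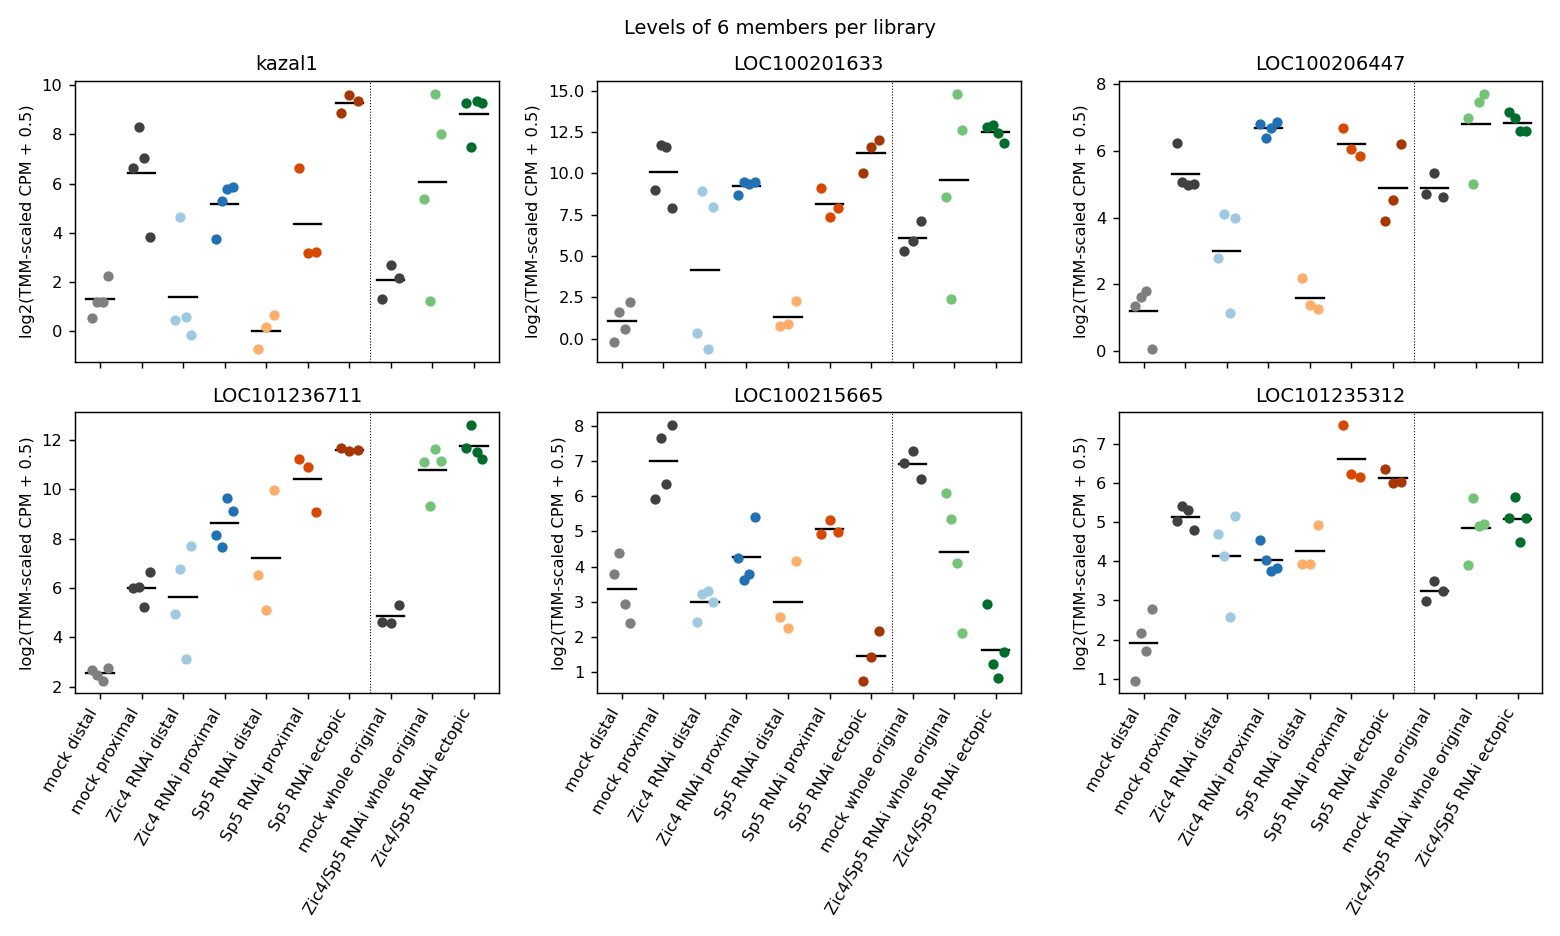
Levels of 6 genes per library as log2(TMM-scaled CPM + 0.5). Points are libraries, bars are the group means of these log2 values and the dotted line parts the separately scaled sets. Sp5 RNAi ectopic libraries are the highest of the divided set for kazal1 (465.2 to 770.2 CPM), whereas LOC100215665 is lowest there (1.20 to 3.98 CPM).

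The next comparison set Sp5 RNAi ectopic tentacles against original tentacles of that treatment, averaging their distal and proximal groups on the log scale, so that the fold change is not the ratio of the 2 arithmetic means. Of the 64 genes, 38 were higher and 9 lower in ectopic tentacles, with 13.6% of all genes higher, 13.7% lower and 27.3% either way (edgeR). The median log2 fold change was 1.57, against 0.05 over all genes. Since the reference includes distal tissue, a gene at its proximal level comes out higher here. Of the 38, 11 lay above all 6 original libraries, and of the 9, 2 lay below them. Among all 64 genes these non-overlapping cases numbered 13 and 2, with 10.2% and 11.5% of all genes. Averaged over libraries, the median level of the 64 genes was 65.5 CPM in ectopic and 67.4 CPM in proximal tissue. Against proximal libraries alone, a comparison added after the data were seen, 5 genes were higher and 10 lower, with 5.51% of all genes higher, 8.89% lower and 14.4% either way (edgeR). The median log2 fold change over the 64 genes was then -0.01, positive for 32 and negative for 32. The 5 were LOC100212827, kazal1, LOC100204650, LOC100199630 and gene 100214049, at log2 fold changes of 4.45, 4.02, 3.60, 3.07 and 2.67. None of the 5 was called without ectopic replicate 2 or proximal replicate 2 or 3, 1 gene was higher without ectopic replicate 3, and 8 to 12 genes were lower without any one of the 6 libraries. With the share of counts in the 10 most abundant genes as a covariate, 2 genes were higher and 9 lower.

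The gene with the largest rise was kazal1, at 465.2, 770.2 and 662.1 CPM in ectopic tentacles, above all 6 libraries of original tentacles (log2 fold change 7.05, SE 1.10, edgeR adjusted p = 6.1e-05). LOC100201633 read 1033, 3093 and 4234 CPM in ectopic tentacles, likewise above all original ones (log2 fold change 6.69, SE 1.31, edgeR adjusted p = 0.000621). LOC100210371 rose with it, by 6.11 on the log2 scale (edgeR adjusted p = 0.000403). Of the genes with the largest mock ratio, genes 100203315 (4.77), 100205745 (5.92), 100197494 (5.76), 100201060 (6.44) and 100192235 (1.84) and LOC100209159 (2.12) were also higher, with the log2 fold change in parentheses. Gene 100201060 lost the call without ectopic replicate 3, and gene 100192235 without ectopic replicate 2 or proximal replicate 3. The ectopic values of gene 100192235, 692.0 to 827.1 CPM, lay above its distal values and within the range of its proximal ones.

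The 9 genes called lower were 14.1% of the 64, near the 13.7% of all genes called lower. LOC100215665 read 1.20, 2.19 and 3.98 CPM in Sp5 RNAi ectopic tentacles, below the distal libraries at 5.42, 4.25 and 17.6 CPM and the proximal ones at 30.1, 39.4 and 31.0 CPM (log2 fold change -2.80, SE 0.61, edgeR adjusted p = 0.00119). LOC100200105 fell to 0, 0.313 and 1.24 CPM, where 3 counts would be 0.412 to 0.469 CPM (log2 fold change -2.58, edgeR adjusted p = 0.0197), and lost the call without ectopic replicate 1 or 2. The other 7 that fell were LOC101235709, LOC105843567 and genes 100192272, 100192273, 100213130, 105847528 and 105849298. Gene 100192273 read 92.1, 59.9 and 70.2 CPM in ectopic, 122.9, 82.7 and 207.7 CPM in distal and 648.1 to 1155 CPM in proximal libraries (log2 fold change against the mean of both parts -2.19, edgeR adjusted p = 0.000168). Its ectopic values overlapped the distal ones and lay below all proximal ones. Of the 9 genes, only LOC100215665 and gene 105847528 were below all distal and proximal libraries. The 10 genes lower than in proximal tissue alone were these 9 and gene 100205787, at log2 fold changes of -2.36 to -4.52. The same libraries differed in other cells' markers. The summed level of the nematoblast genes was 543.0 to 6815 CPM in Sp5 RNAi ectopic, 32.4 to 36.4 CPM in Sp5 RNAi distal and 36.3 to 56.9 CPM in Sp5 RNAi proximal libraries. The dividing and interstitial cell marker piwil1 read 382.7 to 404.3 CPM in ectopic against 174.4 to 348.8 CPM in original libraries. The part of these cells in the result was not tested, and no gene of the gland cell or neuron lists was matched.

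Undivided tentacles of Zic4/Sp5 RNAi animals were compared with those of mock animals, in libraries the choice of genes did not use. Both comparisons share the 3 mock libraries. In original tentacles 12 of the 64 genes were higher and 3 lower, with 2.36% and 2.03% of all 14826 genes tested, or 4.39% either way (edgeR). In ectopic tentacles 26 were higher and 7 lower, with 15% of all genes in each direction, or 30% either way. The median log2 fold change of the 64 genes was 1.22 in original and 1.54 in ectopic tentacles, with medians over all genes of 0.04 and 0.08. The count for original tentacles was 4 without mock replicate 1, 6 without mock replicate 3, 9 without original replicate 3 or 4, 24 without original replicate 1 and 31 without original replicate 2. The count for ectopic tentacles was 21 without mock replicate 1. With the share of counts in the 10 most abundant genes as a covariate, 4 genes were called in original and 4 in ectopic tentacles, and with only the groups compared 5 and 50. For original tentacles DESeq2 called 31 and limma voom 9.

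Among called genes with a RefSeq match whose libraries did not overlap, LOC101236711 had the largest log2 fold change in original tentacles and the second largest, after kazal1, in ectopic ones. It read 24.5, 23.8 and 39.6 CPM in undivided mock tentacles and 2192, 639.6, 3142 and 2290 CPM in Zic4/Sp5 RNAi original tentacles, where it rose (log2 fold change 6.14, SE 0.63, edgeR adjusted p = 0.00178). In the ectopic tentacles it read 3284, 6185, 2895 and 2366 CPM (log2 fold change 6.97, SE 0.65, edgeR adjusted p = 0.000455). Gene 105845353, gene 100208201 and gene 100215485 rose too. Gene 105845353 read 10.8, 13.2 and 14.6 CPM in mock and 207.3 to 895.1 CPM in original tentacles after Zic4/Sp5 RNAi (log2 fold change 5.52, edgeR adjusted p = 0.00156). Gene 100208201 rose by 4.38 and gene 100215485 by 4.06 on the log2 scale in original tentacles (edgeR adjusted p = 0.00156 and 0.00207). These 3 companions were picked after their values were seen. In the divided set the 4 genes were called in neither proximal against distal comparison. For LOC101236711, Sp5 RNAi distal replicate 3, at 994.0 CPM, stood far above replicates 1 and 2, at 92.6 and 34.2 CPM, and it exceeded the lowest Sp5 RNAi proximal library at 544.9 CPM.

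LOC100209159 rose in both kinds of Zic4/Sp5 RNAi tentacle. It read 59.6, 75.0 and 41.1 CPM in mock, 216.3, 211.0, 297.2 and 506.3 CPM in original and 662.0, 890.1, 627.0 and 572.5 CPM in ectopic tentacles (log2 fold changes over mock 2.39 and 3.55, edgeR adjusted p = 0.00813 and 0.000533). The first of these calls was lost without mock replicate 1. The gland cell inhibitor gene kazal1 read 1.98, 6.02 and 4.01 CPM in mock tentacles, and 615.8, 176.5, 659.4 and 614.1 CPM in ectopic ones, without overlap (log2 fold change 7.01, SE 1.68, edgeR adjusted p = 0.0123). Without mock replicate 1 or 3 this call was lost. Original Zic4/Sp5 RNAi tentacles ranged over the whole scale, at 41.5, 1.85, 802.0 and 261.1 CPM, and the difference from mock did not pass the test (log2 fold change 6.10, SE 1.61, edgeR adjusted p = 0.0595). LOC100201633 was similar, with 38.6, 60.7 and 136.1 CPM in mock, 384.5, 4.75, 28801 and 6377 CPM in original and 3593 to 7924 CPM in ectopic tentacles. It rose in ectopic tentacles (log2 fold change 6.27, SE 2.04, edgeR adjusted p = 0.0403). LOC100210371 (5.82, edgeR adjusted p = 0.0371) and gene 100208558 (2.90, edgeR adjusted p = 0.0381) rose as well. The calls of LOC100201633 and LOC100210371 did not survive leaving out any one of the 7 libraries compared, and that of gene 100208558 was lost without mock replicate 1 or 3 or ectopic replicate 1, 3 or 4.

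The 3 genes that fell in Zic4/Sp5 RNAi original tentacles were LOC100209836, LOC100209044 and gene 105843060. LOC100209836 read 49.0, 52.2 and 30.6 CPM in mock and 2.96, 10.4, 4.94 and 2.76 CPM in original tentacles (log2 fold change -3.07, SE 0.50, edgeR adjusted p = 0.0112). It was at 1.86 to 5.16 CPM in ectopic tentacles (log2 fold change -3.58, edgeR adjusted p = 0.00165). Without mock replicate 1 the call in original tentacles was lost. LOC100209044, an abundant transcript at 1433, 1039 and 1751 CPM in mock, fell to 512.8 to 780.7 CPM in original tentacles (log2 fold change -1.07, edgeR adjusted p = 0.0376), and this call was lost without any one of 5 libraries, namely mock replicates 1, 2 and 3 and original replicates 3 and 4. Gene 105843060 read 32.8 ± 9.73 CPM (SD, n = 4) in original and 85.6 ± 26.5 CPM (n = 3) in mock tentacles (log2 fold change -1.38, edgeR adjusted p = 0.0315). LOC100215665 read 123.3, 155.5 and 88.9 CPM in mock and 7.18, 1.84, 1.28 and 2.47 CPM in ectopic tentacles, its lowest group in the undivided set (log2 fold change -5.24, SE 0.89, edgeR adjusted p = 0.00305).

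Within Zic4/Sp5 RNAi animals, ectopic tentacles were set against original ones. In edgeR none of the 64 genes was called, and 0% of all genes were. The unadjusted p was under 0.05 for 15 of the 64, a share close to that of all genes (3032 of 14826). DESeq2 called 8 of the 64 and limma voom 0. The smallest edgeR adjusted p was 0.0989, shared by LOC100204815 and LOC100215665. LOC100204815 had no overlap between 928.2 ± 86.9 CPM (SD, n = 4) in ectopic and 456.8 ± 143 CPM (n = 4) in original tentacles (log2 fold change 1.02). Without original replicate 4 the count was 11. The nematoblast genes summed to 638.5 to 7061 CPM in ectopic, 37.1 to 3005 CPM in original Zic4/Sp5 RNAi and 32.1 to 107.1 CPM in mock tentacles. The head organizer genes summed to 91.4 to 407.6 CPM in ectopic, 25.9 to 593.2 CPM in original Zic4/Sp5 RNAi and 30.5 to 48.3 CPM in mock tentacles, where hywnt1, hywnt9/10a, hywnt9/10b and hywnt9/10c were at 0. The part of these cells in the differences from mock was not tested.

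The ectopic comparisons of Sp5 RNAi and of Zic4/Sp5 RNAi animals share no library. Genes called higher in both numbered 17, which is 44.7% of the 38 and 65.4% of the 26. They included kazal1, LOC100201633, LOC100210371, LOC100209159, LOC100206048, LOC100206447, LOC100204815 and LOC100204143. Genes called lower in both numbered 4, which is 44.4% of the 9 and 57.1% of the 7, namely LOC100215665, gene 100192272, gene 100192273 and gene 105847528. No gene was called in opposite directions, and 5 were called in neither. The share of all genes called in both comparisons was not determined, so these overlaps are a description.

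**Figure D5:**
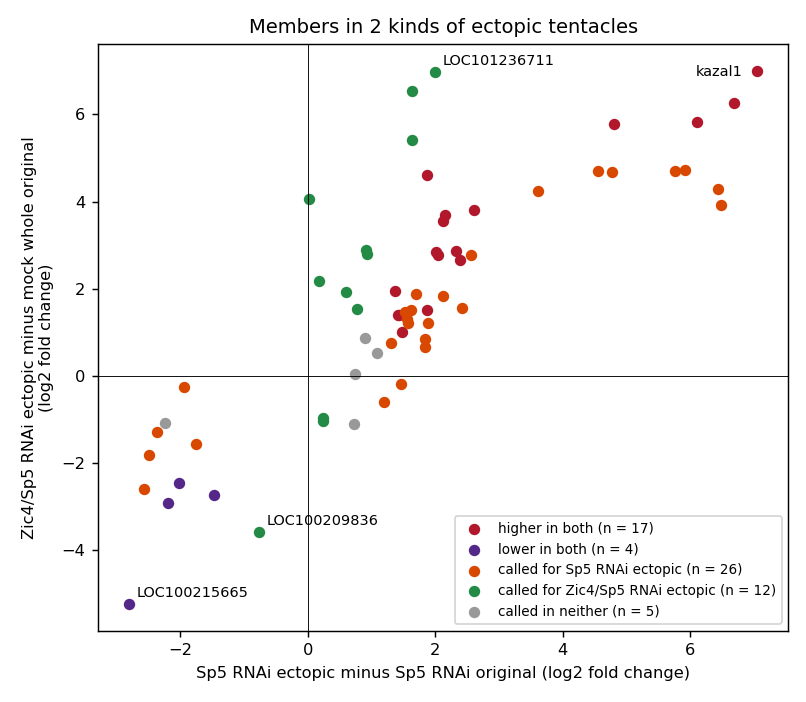
Fitted log2 fold change of ectopic over original tentacles after Sp5 RNAi (x axis) and of Zic4/Sp5 RNAi ectopic over undivided mock tentacles (y axis), 1 point per gene, coloured by the calls. The point for kazal1 lies at the upper right (7.05 and 7.01) and LOC100215665 at the lower left (-2.80 and -5.24).

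The genes did not form a single pattern. Over the 28 libraries that had no part in their choice, 17 divided and 11 undivided, the log2 levels of 18 of the other 63 genes correlated with those of kazal1 at Pearson's r of 0.8 or more and 45 at 0.5 or more, with a median of 0.71. The points share library depth, composition and treatment groups, so these values are a description. The closest were LOC100212827 (r = 0.93), LOC100199630 (0.93), LOC100204650 (0.90), gene 100214049 (0.90), LOC100201633 (0.90) and LOC100210371 (0.89). LOC100212827, for example, read 0, 8.46, 0 and 0.202 CPM in Zic4 RNAi distal libraries and 13.8, 0, 387.3 and 53.7 CPM in Zic4/Sp5 RNAi original libraries, high and low in the same replicates as kazal1. The libraries of the sets are scaled apart, and the values differed between them. Within the 17 divided libraries 13 genes had r of 0.8 or more and 5 had r below 0 (median 0.72). Within the 11 undivided libraries 29 genes had r of 0.8 or more and 16 had r below 0 (median 0.75). The 6 closest genes had r of 0.85 to 0.93 in the divided and 0.93 to 0.96 in the undivided set. Over all 28 libraries 9 genes had r below 0, and the lowest were gene 100192272 (-0.21 divided, -0.68 undivided), gene 105847528 (0.01 and -0.92), LOC100215665 (-0.18 and -0.83) and gene 100192273 (-0.18 and -0.73). LOC100209044 went from 0.60 in the divided to -0.78 in the undivided set. All ectopic libraries, in which kazal1 was high, are among the 28, so negative values of genes called lower there restate those calls.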

How the data were processed

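Transcripts of Hydra vulgaris tentacles were measured by RNA sequencing in 36 libraries of 10 groups. Per the labels' protocols, the SmartSeq2 method gave full-length cDNA, which was tagmented with Tn5 and amplified by PCR. No molecular identifiers are mentioned, so a floor of 3 counts covers counting error alone. Raw counts per gene were used as the authors deposited them. The submitters' processing notes name bcl2fastq and STAR 2.5.0. The counting program, the genome build and the treatment of shared reads and strand are not given in the sources used here, so no coordinates are printed, and promoter motifs and sequences were not used here. Of 22608 genes, 2221 had 0 counts throughout and 9547 matched RefSeq. All columns were mapped to a sample (0 unmapped).

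Both sets were fitted apart in edgeR 4.0.16 (R 4.3.3; filterByExpr, TMM, robust quasi-likelihood test), each across all its groups, with Benjamini-Hochberg adjustment over all genes tested and calls at adjusted p under 0.05. Standard errors are the log2 fold change over the root of F. Alternatives used DESeq2 1.42.0, limma 3.58.1, other scalings, filters, covariates and samples. Scripts were tested on simulated data. Correlation with kazal1 used log2(TMM-scaled CPM + 0.5). Genes were named by rule: the 10 with the largest ratio, members of fixed name lists, and in each planned comparison the 2 largest rises and falls with a RefSeq match among calls without overlap. Others were chosen after their values were seen. The part of the rule for genes around the limit of 150 was void. Members and lists were chosen with earlier results of these data known, and spelling variants of marker names were added after the files were read. Name lists matched 8 nematoblast, 11 head organizer, 4 battery cell, 1 basal disk and 1 dividing or interstitial cell gene and no gland cell or neuron gene. The basal disk gene was at 0 to 4.66 CPM. Replicate numbers paired the samples only for Zic4/Sp5 RNAi ectopic against original tentacles, where all 4 same-numbered pairs deviated together (correlations 0.25 to 0.41).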

Additional observations from a re-analysis of the deposited data

Results flagged for a closer look

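In the 20 genes named by rule, 120 groups of 4 libraries were examined for a library whose gap to the nearest other exceeded 0.829 of the group's range, Dixon's 95% critical value. For independent, normally distributed values chance alone picks out about 1 group in 20. The levels examined here were not log-transformed, and the genes share libraries, so that rate is no reference for them. The criterion was met by 14 libraries. Values are TMM-scaled CPM.

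Zic4 RNAi distal replicate 2 was, in 4 of the genes, far above the other 3 distal libraries. It read 24.2 for kazal1 (others 0.404 to 0.981), 51.9 for gene 100197494 (others 0 to 0.140), 49.8 for gene 100203315 (others 0.140 to 1.62) and 8.69 for gene 100201060 (others at 0). Zic4/Sp5 RNAi original replicate 3 stood high for gene 100201060 at 700.0 (others 0.132 to 81.0), for gene 100203315 at 2810 (others 0.528 to 359.8) and for gene 100205745 at 2243 (others 0.132 to 330.3). In Zic4/Sp5 RNAi ectopic tentacles kazal1 was low in replicate 2, at 176.5, with the others at 614.1 to 659.4.

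The remaining 6 were scattered. LOC100200105 was high in Zic4 RNAi distal replicate 4 at 4.65. LOC100201106 was high in Zic4 RNAi proximal replicate 2 at 63.7, and gene 100192235 in Zic4 RNAi proximal replicate 3 at 1408. LOC100206447 was high in mock proximal replicate 1 at 74.8. LOC101236584 was high in Zic4/Sp5 RNAi original replicate 4 at 31.2 and in ectopic replicate 1 at 41.8.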

How the results depend on the processing

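Counts are of the 64 genes called. The share of all genes called under each alternative is not given, so the counts describe the processing and not a trait of the 64 genes. For Zic4 RNAi proximal against distal (10), DESeq2 called 21, limma voom 36 and a fit of only the groups compared 16. For Sp5 RNAi against Zic4 RNAi in proximal tissue (7), library totals alone gave 4, the share of the 10 most abundant genes as a covariate 1, and only the groups compared 19. In distal tissue (2), no filter, only the groups compared and the replicate block each gave 1, and DESeq2 15. For the difference between treatments (0), DESeq2 gave 7, and no filter and only the groups compared 1 each. For Sp5 RNAi ectopic against proximal (15, added after the data were seen), other scalings, filters, tools, covariates and samples in the fit gave 11 to 20. For Zic4/Sp5 RNAi original against mock (15), DESeq2 gave 31, limma voom 9, the covariate 4 and only the groups compared 5. For ectopic against mock (33), the covariate gave 4 and only the groups compared 50. For ectopic against original (0), DESeq2 gave 8.

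Choosing the genes on TMM-scaled CPM let 213 genes pass, of which 150 were kept with all 64 among them. Calls were then 22 for Zic4 RNAi and 119 for Sp5 RNAi proximal against distal, 87 for Sp5 RNAi ectopic against original and 25 against proximal, 15 and 4 for Sp5 RNAi against Zic4 RNAi in proximal and distal tissue, 1 for the difference between treatments and 89 for Zic4/Sp5 RNAi ectopic against mock.

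Leaving out 1 library gave 4 to 24 calls for Zic4 RNAi and 35 to 53 for Sp5 RNAi proximal against distal, 33 to 52 for Sp5 RNAi ectopic against original and 8 to 14 against proximal. It gave 1 to 7 and 0 to 14 for Sp5 RNAi against Zic4 RNAi in proximal and distal tissue, and 0 to 2 for their difference. It gave 4 to 31 for Zic4/Sp5 RNAi original and 21 to 29 for ectopic against mock, and 0 to 11 between them.

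The replicate block gave 14 calls for Zic4 RNAi and 54 for Sp5 RNAi proximal against distal, 43 for Sp5 RNAi ectopic against original and 12 against proximal, 6 for Sp5 RNAi against Zic4 RNAi in proximal tissue and 0 for the difference between treatments. For Zic4/Sp5 RNAi it gave 11 in original and 28 in ectopic tentacles against mock, and 0 between them. Outside the last of these comparisons, equal numbers did not pair the samples. No named gene reversed under any alternative. Of 40 calls of named genes, 15 held under every alternative run. The cause of these differences was not tested. All genes that pass the criteria are the same 64, so that alternative changed nothing.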
